A study of Mus musculus with 46 samples.

Results

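The RNA of DNA transposon loci was followed in B16F10 melanoma cells after targeting of Arid1a, in 4 total RNA libraries. The loci are the repeats that the annotation puts in class DNA, and they were chosen by their level: the normalized log2 value had to average at least 2 over the 4 libraries. This left 3808 of the 163077 class DNA loci in the table (2.34%), and 3.67% of the 103654 loci of all repeat classes that reach the same mean. Another 107359 class DNA loci had no read in any library, and 13 loci of the uncertain class DNA? that reached the mean were left out. Because the level chose the loci, their level is a description and is not tested. The members nearest the limit had means of 2.001, 2.001 and 2.001, and the nearest loci left out had means of 1.998, 1.998 and 1.998. In 67 members the sgArid1a mean, and in 154 the sgScramble mean, was below 2, so these passed through the other group. One group consisted of cells with genotype sgArid1a and the other of cells with genotype sgScramble, the control guide, with 2 libraries in each. All 4 came from untreated cultures of the same mouse melanoma line, and Cas9 delivery, clonality and the number of separate cultures are not given in the sources used here, so p-values measure only the spread between these libraries, which may be technical.

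DNA transposons move as DNA, by a cut-and-paste reaction in which an element's transposase binds the inverted repeats at both of its ends. In the mouse genome they are old, degraded copies, mostly of the hAT and Tc1/mariner superfamilies, with a few PiggyBac and MuDR loci. They are no longer known to move, and many are short forms that never encoded a transposase. Since most lie inside genes, reads from them can come from the transcript of the gene as well as from the element. Arid1a is the DNA-binding subunit of the BAF form of the SWI/SNF complex, which slides and evicts nucleosomes.

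The hAT and Tc1/mariner superfamilies are shown by members that lie whole in an exon with no coding or untranslated part. These were used because their sequence could be read from a GENCODE vM21 transcript (GRCm38). Of the 1049 members that overlap an exon, 781 lay whole in 1 exon with at least 30 separate bases at each end. Their first 30 and last 30 bases were searched for the longest run that reads the same on the opposite strands, the mark of an inverted repeat. A run of at least 8 bases was present in 58 of the 781 (7.43%), and in 123 of 13895 LINE, SINE and LTR loci read the same way (0.885%). The rodent hAT-Charlie subfamilies URR1A and URR1B supplied 48 of the 58. They held such a run in 48 of 180 loci read (26.7%), against 10 of 601 other members (1.66%), and no Tigger locus of 148 did. The 5 sequences below, chosen for runs close to both ends, are written on the element's strand, 5′ to 3′, with the 2 arms of the inverted run in capitals.
URR1B in Pax3, chr1:78184826-78185042, plus strand: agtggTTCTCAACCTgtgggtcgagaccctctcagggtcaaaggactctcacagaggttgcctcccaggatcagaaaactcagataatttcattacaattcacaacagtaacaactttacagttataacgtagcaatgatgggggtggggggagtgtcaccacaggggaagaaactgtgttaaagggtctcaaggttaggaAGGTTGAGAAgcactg
URR1B in D030028A08Rik, chr11:96964023-96964211, plus strand: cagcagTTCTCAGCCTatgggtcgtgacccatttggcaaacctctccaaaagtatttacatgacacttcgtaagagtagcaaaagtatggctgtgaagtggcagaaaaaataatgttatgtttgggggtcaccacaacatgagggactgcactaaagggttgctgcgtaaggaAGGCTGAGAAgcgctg
URR1A in Swi5, chr2:32283711-32283895, minus strand: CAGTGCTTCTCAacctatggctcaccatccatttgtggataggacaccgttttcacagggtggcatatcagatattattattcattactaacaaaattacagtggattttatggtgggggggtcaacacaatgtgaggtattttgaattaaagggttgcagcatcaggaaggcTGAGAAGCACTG
URR1A in Ezh2, chr6:47541183-47541364, plus strand: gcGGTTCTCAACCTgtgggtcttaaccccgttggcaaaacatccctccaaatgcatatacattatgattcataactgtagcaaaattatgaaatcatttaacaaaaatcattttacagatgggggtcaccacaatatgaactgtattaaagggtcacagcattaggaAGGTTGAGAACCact
RMER30 in Sort1, chr3:108355815-108356016, minus strand: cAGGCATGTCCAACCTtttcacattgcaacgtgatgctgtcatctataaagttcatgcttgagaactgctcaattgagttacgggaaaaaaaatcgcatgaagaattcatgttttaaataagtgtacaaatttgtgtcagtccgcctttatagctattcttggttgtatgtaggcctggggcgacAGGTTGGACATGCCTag
The Swi5 copy keeps a run of 12 bases at its very ends, CAGTGCTTCTCA, and the Sort1 copy keeps the longest of the 5, at 15 bases. None of the 5 was called different between the groups. The difference of sgArid1a minus sgScramble was 0.21 for the Pax3 copy, -0.10 for the D030028A08Rik copy, 0.16 for the Swi5 copy, 0.50 for the Ezh2 copy and -0.14 for the Sort1 copy, each with a standard error of 0.21 to 0.23. Over all URR1A and URR1B loci read, the median difference was -0.04 for the 48 with an inverted run and -0.02 for the 132 without one.

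Members without an inverted run of 8 bases are shown by 3 mariner fragments (MMAR1) in a processed transcript of Tulp4, which return below. A Charlie15a copy in a transcript of Tug1 annotated as antisense is also shown, with a Tigger7 copy in an exon of an E2f6 transcript annotated as retained intron. All 5 sequences are in lower case throughout because no part was marked.
MMAR1 in Tulp4, chr17:6122341-6122567, minus strand: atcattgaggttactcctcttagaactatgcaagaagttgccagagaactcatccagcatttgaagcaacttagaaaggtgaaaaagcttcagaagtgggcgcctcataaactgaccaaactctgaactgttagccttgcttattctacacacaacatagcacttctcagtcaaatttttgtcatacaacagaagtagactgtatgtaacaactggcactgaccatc
MMAR1 in Tulp4, chr17:6122717-6122830, minus strand: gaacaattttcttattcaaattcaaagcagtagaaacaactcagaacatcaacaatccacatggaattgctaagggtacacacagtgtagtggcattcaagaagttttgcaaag
MMAR1 in Tulp4, chr17:6123134-6123351, minus strand: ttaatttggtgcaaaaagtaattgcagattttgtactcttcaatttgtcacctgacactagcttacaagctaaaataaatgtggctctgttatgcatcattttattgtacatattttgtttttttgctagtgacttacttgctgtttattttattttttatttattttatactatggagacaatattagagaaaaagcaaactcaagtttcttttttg
Charlie15a in Tug1, chr11:3642956-3643127, plus strand: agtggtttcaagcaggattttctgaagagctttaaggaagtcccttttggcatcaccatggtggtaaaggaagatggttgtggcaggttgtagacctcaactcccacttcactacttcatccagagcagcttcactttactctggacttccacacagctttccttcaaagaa
Tigger7 in E2f6, chr12:16821327-16821591, plus strand: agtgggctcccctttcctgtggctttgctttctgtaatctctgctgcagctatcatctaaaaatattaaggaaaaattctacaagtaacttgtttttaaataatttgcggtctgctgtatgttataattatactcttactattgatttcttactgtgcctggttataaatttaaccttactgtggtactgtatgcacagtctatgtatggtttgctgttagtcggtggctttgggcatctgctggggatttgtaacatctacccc
The 3 MMAR1 fragments share no run longer than 9 bases with one another. The Tigger7 copy in E2f6 had log2 values of 6.24 and 6.19 in sgArid1a libraries, against 5.60 and 5.47 in sgScramble libraries. Its groups did not overlap, and its difference of 0.68 ± 0.20 was not called (adjusted p = 0.201). The Charlie15a copy had 6.96 and 6.89 in sgArid1a libraries and 6.67 and 6.82 in sgScramble libraries.

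The sgArid1a libraries held 73.0 M and 71.9 M reads and the sgScramble libraries 62.6 M and 62.9 M, per the file header. The header names the control columns sgNT where the labels name sgScramble. The labels give the molecule as total RNA but name a library kit for mRNA. The repeat table lists no genes, so the targeting could not be checked in these 4 libraries. In the separate polyA libraries of untreated B16F10 cultures, Arid1a had log2 values of 10.43 and 10.39 with sgArid1a and 10.90 and 11.08 with sgScramble, a fall of 0.58 ± 0.11 on the log2 scale (adjusted p = 0.00431). The pigment enzyme gene Dct, a marker of melanocytes, stood at 16.69 and 16.76 with sgArid1a and 16.93 and 16.82 with sgScramble in those libraries. All libraries are bulk, so more cells with an RNA and more of it per cell cannot be told apart.

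Members lay in genes far more often than the rest of their class. Of the 3808 members, 1049 overlapped an exon (27.5%), 2526 lay in introns (66.3%) and 233 lay outside genes (6.12%). Of the 159269 class DNA loci below the limit, 2.49% overlapped an exon, 49.1% lay in introns and 48.4% outside genes. Most loci of every class that reach the limit lie in genes, so this is not particular to the members. Of those 103654 loci, 26723 overlapped an exon, 63178 lay in introns and 13753 outside genes. Untranslated regions were touched by 627 members, 592 of them in a 3′ UTR and 35 in a 5′ UTR, coding sequence by 56, and 394 exon members touched neither. Of the 233 members outside genes, 195 lay within 10 kb of a gene and 38 farther away.

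**Figure D1:**
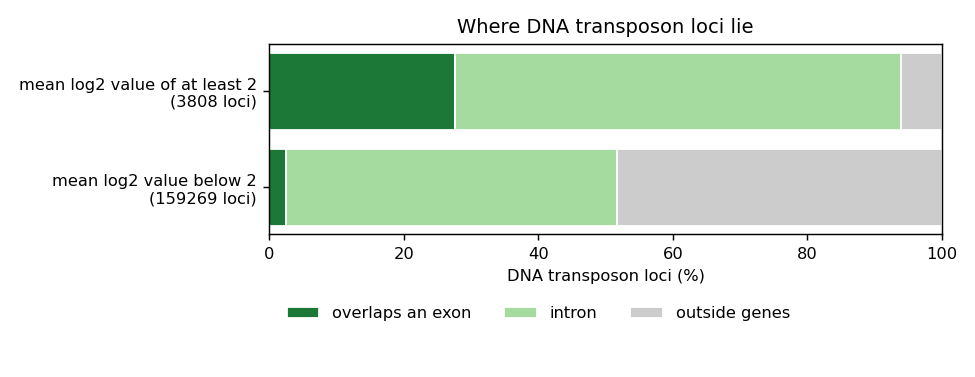
Share of DNA transposon loci (%, horizontal axis) that overlap an exon, lie in an intron or lie outside genes, for the 3808 members (upper bar) and the 159269 class DNA loci below the limit (lower bar). The exon share is 27.5% in the upper bar and 2.49% in the lower, and the share outside genes is 6.12% in the upper bar and 48.4% in the lower. Loci of other classes at the same limit, most of them also in genes, are not drawn.

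Orientation was even: 1753 of the 3575 members in genes lay on the strand of the gene (49.0%). The repeat counts used no strand option, so reads of an element, of its gene and of an antisense transcript are not separated. Members were longer than the rest of the class, with a median of 199.5 bases (quartiles 151 and 269) against 159 bases (107 and 212), and a longer locus can collect more reads. Their divergence from the consensus was similar, at a median of 27.1% against 27.6%. More than 1 gene was overlapped by 325 members. Such a locus was given to 1 gene: first one with an exon there, then a protein-coding one, then the longest. The members were spread over 2397 genes, of which 1697 held 1 member and 48 held at least 5.

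The hAT-Charlie family supplied 2582 members (67.8%) and TcMar-Tigger 913 (24.0%). The families hAT-Tip100 with 96 members, TcMar-Mariner with 53, hAT-Blackjack with 45, TcMar-Tc2 with 36 and hAT with 21 followed, and 9 smaller families held 62 members. The share of a family that reached the limit was 4.91% for TcMar-Mariner, 2.60% for TcMar-Tigger, 2.44% for hAT-Charlie and 1.03% for hAT-Tip100. None of the 21 TcMar-Pogo loci in the table reached it.

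The highest level belonged to a FordPrefect copy, a hAT-Tip100 element, at chr17:39842998-39843163 in an exon of the long noncoding RNA gene Gm26917. It had log2 values of 12.48 and 12.05 in sgArid1a libraries and 12.64 and 12.58 in sgScramble libraries. A repeat annotated as small-subunit ribosomal RNA begins 3189 bases beyond its end on the same strand and had 15.39 and 14.77 in sgArid1a libraries, against 14.45 and 14.13 in sgScramble libraries. The 2 loci differed in direction, with -0.35 ± 0.15 for FordPrefect (adjusted p = 0.534) and 0.79 ± 0.14 for the ribosomal repeat (adjusted p = 0.00482). How completely ribosomal RNA was removed from each library is not given in the sources used here, and its part in the FordPrefect level was not tested.

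The next highest were not called either. A MER58C copy in the transcribed pseudogene Ppp1ccb (chr7:119742127-119742243) had 10.81 and 10.69 in sgArid1a libraries and 10.72 and 10.99 in sgScramble libraries. Reads of a pseudogene can be shared with its parent gene, so that value is uncertain. A Tigger17 copy in the 3′ UTR of Mgat5 (chr1:127484812-127484984), an enzyme that branches N-glycans, had 10.17 and 9.90 in sgArid1a libraries and 9.83 and 9.97 in sgScramble libraries. Charlie6 in the 3′ UTR of Thumpd1 (chr7:119716047-119716506) had 9.90 and 9.70 in sgArid1a libraries and 9.754 and 10.003 in sgScramble libraries. In these 3 loci the groups overlapped.

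A MER58A copy of 90 bases in an intron of Dct (chr14:118030810-118030899) had 9.66 and 9.55 in sgArid1a libraries and 9.64 and 9.63 in sgScramble libraries. MER117 in the 3′ UTR of Maged1 (chrX:94535548-94535696) had 9.61 and 9.38 in sgArid1a libraries, against 9.65 and 9.70 in sgScramble libraries, with a difference of -0.18 ± 0.17. Per kilobase of locus, the mean log2 values of these 6 were 15.03 for FordPrefect, 13.90 for MER58C, 13.09 for MER58A, 12.50 for Tigger17, 12.33 for MER117 and 10.96 for Charlie6.

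As a class the members differed little between the groups. Their mean log2 value was 3.247 and 3.240 in sgArid1a libraries and 3.188 and 3.238 in sgScramble libraries, a difference of 0.03. Without the first sgScramble library the difference was 0.006, and without the second it was 0.055. The groups did not overlap, but with 2 libraries against 2 an exact permutation test cannot give a p below 0.333. Over all 103654 loci the mean was 3.299 and 3.279 in sgArid1a libraries, against 3.263 and 3.283 in sgScramble libraries. The median difference was 0.04 over the members and 0.02 over all loci. These values include the 154 members that passed only through sgArid1a values and the 67 that passed only through sgScramble values. Of the 3587 members at or above the limit in both groups, 2018 had positive and 1569 negative differences.

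Single loci were compared with limma over all 103654 loci, with Benjamini-Hochberg adjustment and a call at an adjusted p under 0.05. Limma draws the variance of each locus toward that of loci of similar level. The standard errors and p-values of a locus thus rest on variance pooled over loci, and not on its own libraries alone. Of the members, 5 were higher (0.131%) and 13 lower (0.341%) in sgArid1a libraries, beside 0.107% of all loci called higher and 0.262% called lower, so the members' shares were near those of all loci. Without the second sgScramble library 9 members were called higher and 16 lower. No member was called when loci of every level entered the fit, 10 were higher and 16 lower with a limit of 4, and 1 was higher and 6 lower when exonic members were left out. The 2 groups did not overlap in 1413 members (37.1%), and in 37.1% of all loci. By the adjusted p of the authors' deposited table, 7 members were called, 4 higher and 3 lower, all among the 18, beside 0.121% of all loci. Those 7 were the called loci in Col11a2, Mal, Klhl30 and Igfbp4, both in Mgat4a, and the RCHARR1 copy near Rad50, each described below. The called differences had sizes from 0.79 to 1.56, and 15 members in all differed by more than 1. At low levels the differences of these log2 values were smaller than the fold changes of the authors' deposited table. The median size was 0.14, beside 0.52 for the authors' log2 fold changes, over the 2262 members with a mean below 3, and 0.16 beside 0.17 over the 245 members with a mean of at least 6.

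**Figure D2:**
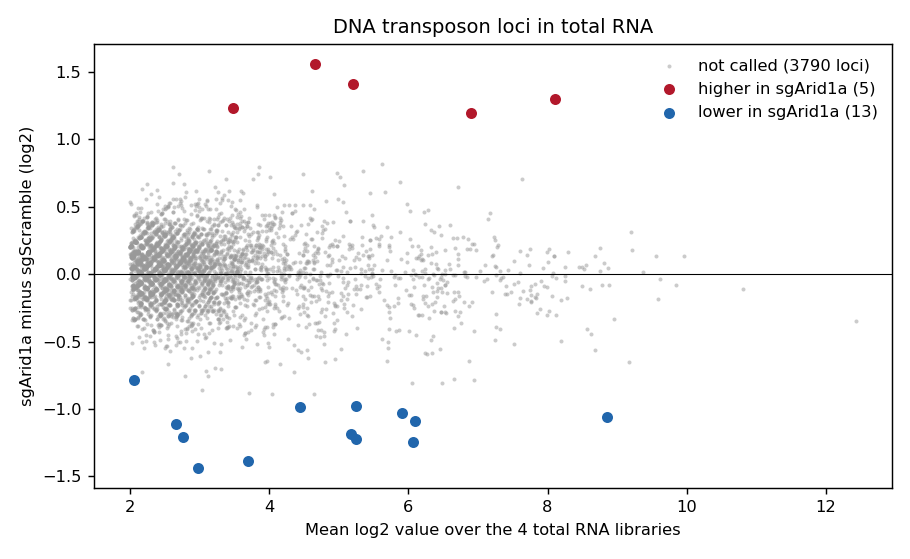
Difference of sgArid1a minus sgScramble total RNA (log2, vertical axis) against the mean log2 value over the 4 libraries (horizontal axis), 1 point a locus. Red marks the 5 loci called higher, blue the 13 called lower and grey the 3790 not called. Called sizes run from 0.79 to 1.56, and some uncalled loci, such as Tigger5b in Trpm1 at -0.86, lie beyond the smallest called fall.

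By place and by level, the members followed the pattern of all loci. The median difference was 0.05 over the 2526 intronic members and 0.00 over the 1049 exonic ones, against 0.04 over all intronic loci and -0.01 over all exonic loci. It was 0.03 over the 233 members outside genes and 0.00 over all such loci. Members with a mean from 2 to 3 had a median difference of 0.05, and those with a mean of at least 6 had -0.03, beside 0.02 and -0.02 over all loci of these levels. Of the 18 called members, 11 overlapped an exon (1.05% of exonic members, 0.696% of all exonic loci), 4 lay in introns (0.158% and 0.195%) and 3 outside genes (1.29% and 0.538%). A 3′ UTR held 10 of the 18 (1.69% of the 592 members there, beside 1.02% of the 13385 loci of all classes that touch only a 3′ UTR).

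The largest rise was that of a MamRep38 copy of the hAT family in the 3′ UTR of Col11a2 (chr17:34066553-34066662), which encodes a chain of type XI collagen. Its log2 values were 5.48 and 5.38 in sgArid1a libraries, against 3.93 and 3.81 in sgScramble libraries. Both sgArid1a libraries lay far above both sgScramble libraries, with a difference of 1.56 ± 0.21 (adjusted p = 7.41e-05). In the separate polyA libraries Col11a2 itself was also higher, by 1.31 ± 0.20 (adjusted p = 0.00124).

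A Tigger18a copy in the 3′ UTR of Mal (chr2:127633445-127633619), a membrane proteolipid, had 5.98 and 5.83 in sgArid1a libraries and 4.46 and 4.54 in sgScramble libraries. It rose by 1.41 ± 0.20 (adjusted p = 0.000254). Mal in polyA RNA differed by only 0.18 ± 0.11 and was not called (adjusted p = 0.322). The 3 loci of other classes in Mal had differences of 0.44 to 0.86, all above 0.

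The 3′ UTR of Mgat4a, another enzyme that branches N-glycans, held 2 members that rose. RMER30 (chr1:37440607-37440775) had 8.85 and 8.68 in sgArid1a libraries, against 7.37 and 7.56 in sgScramble libraries, and rose by 1.30 ± 0.18 (adjusted p = 0.000173). MER3 (chr1:37442153-37442260) had 7.65 and 7.35 in sgArid1a libraries, against 6.27 and 6.34 in sgScramble libraries, and rose by 1.20 ± 0.20 (adjusted p = 0.00129). Lying in the same untranslated region, they are not independent of each other. Mgat4a in polyA RNA differed by 0.15 ± 0.10 (adjusted p = 0.396), while 11 of its 13 loci of other classes had positive differences, with a median of 0.38. Of the 10 at or above the limit in both groups, 9 had positive differences.

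The fifth rise was a RCHARR1 copy in an intron of the gene model Gm20388 (chr8:124187044-124187269), with 4.12 and 4.07 in sgArid1a libraries and 2.96 and 2.76 in sgScramble libraries. It rose by 1.23 ± 0.21 (adjusted p = 0.00258), and the 284 loci of other classes in Gm20388 had a median difference of 0.00. Because a locus in several genes was given to 1 of them, the loci given to Gm20388 may lie in other genes too. They are therefore not a comparison within 1 transcript. The 10 members in Gm20388, this one included, had a median of 0.18, with 8 above 0, beside 57.0% of all members. Of the 9 at or above the limit in both groups, 7 were above 0. In the authors' deposited table the adjusted p of the RCHARR1 copy was 0.493. The largest positive difference that was not called, among members with a mean of at least 4 and separate groups, was MER81 in an intron of Padi2 (chr4:140929616-140929717), a peptidylarginine deiminase. MER81 had 6.16 and 5.91 in sgArid1a libraries and 5.55 and 4.88 in sgScramble libraries, and differed by 0.82 ± 0.22 (adjusted p = 0.136). Its difference was 1.15 without the first sgScramble library (adjusted p = 0.00678) and 0.48 without the second (adjusted p = 0.614). Padi2 in polyA RNA rose by 0.83 ± 0.10 (adjusted p = 0.000201), and 4 of its 10 loci of other classes were called.

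**Figure D3:**
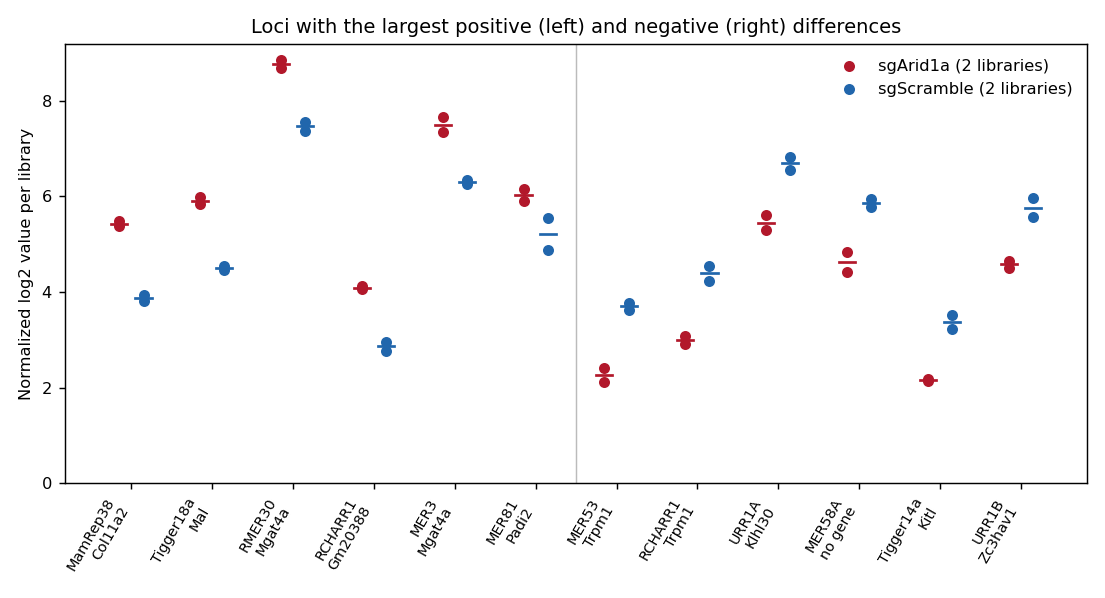
Normalized log2 value (vertical axis) of the 6 largest positive and the 6 largest negative differences chosen among members with separate groups, in each of the 2 sgArid1a libraries (red, left of each pair) and the 2 sgScramble libraries (blue), with bars at the means; the gene that holds the locus is under its name. For all 12 the groups are apart, from MamRep38 in Col11a2 at 5.48 and 5.38 in sgArid1a against 3.93 and 3.81 in sgScramble to URR1B in Zc3hav1 at 4.51 and 4.65 in sgArid1a against 5.95 and 5.58 in sgScramble.

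The largest falls were in Trpm1, a cation channel gene of melanocytes, which held 5 members. MER53 in an intron (chr7:64200737-64200901) had 2.41 and 2.11 in sgArid1a libraries, against 3.78 and 3.62 in sgScramble libraries, and fell by 1.44 ± 0.22 on the log2 scale (adjusted p = 0.000412). RCHARR1, 876 bases long and overlapping an annotated 5′ UTR (chr7:64194679-64195554), had 3.09 and 2.91 in sgArid1a libraries, against 4.54 and 4.23 in sgScramble libraries. It fell by 1.39 ± 0.22 on the log2 scale (adjusted p = 0.000675). In the authors' deposited table neither was called, with log2 fold changes of -4.50 and -2.82 and adjusted p of 0.242 and 0.11.

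The other 3 members in Trpm1 had negative differences that were not called. Tigger5b (chr7:64219478-64219587) had 2.68 and 2.52 in sgArid1a libraries and 3.63 and 3.28 in sgScramble libraries, a difference of -0.86 ± 0.22 (adjusted p = 0.0885). URR1B differed by -0.55 ± 0.21 and URR1A by -0.49 ± 0.21. The URR1B copy reached the limit for members only through its sgScramble values, so its sign is partly set by the choice of members. All 28 loci of other classes in Trpm1 had negative differences too, with a median of -0.91, and 15 of them were called. Of these 28, 21 were at or above the limit in both groups. Trpm1 in polyA RNA had 7.78 and 7.93 with sgArid1a and 10.08 and 10.17 with sgScramble, and fell by 2.27 ± 0.10 on the log2 scale (adjusted p = 2.51e-08).

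A URR1A copy in the 3′ UTR of Klhl30 (chr1:91361966-91362107) had 5.29 and 5.60 in sgArid1a libraries, against 6.56 and 6.83 in sgScramble libraries. It fell by 1.25 ± 0.21 on the log2 scale (adjusted p = 0.00137), and Klhl30 in polyA RNA fell by 0.68 ± 0.13 (adjusted p = 0.00529). A Tigger14a copy in the 3′ UTR of Kitl (chr10:100098125-100098264), the ligand of the receptor Kit, had 2.18 and 2.13 in sgArid1a libraries and 3.23 and 3.51 in sgScramble libraries. It fell by 1.21 ± 0.21 on the log2 scale (adjusted p = 0.00285), and Kitl in polyA RNA differed by -0.15 ± 0.10 (adjusted p = 0.396).

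A URR1B copy in an intron of Zc3hav1 (chr6:38337737-38337853), which encodes the zinc finger antiviral protein, had 4.51 and 4.65 in sgArid1a libraries and 5.95 and 5.58 in sgScramble libraries. It fell by 1.18 ± 0.21 on the log2 scale (adjusted p = 0.0036). Zc3hav1 in polyA RNA differed by -0.07 ± 0.09 (adjusted p = 0.699), and of its 19 loci of other classes 9 had negative differences and 2 were called. The URR1B copy is the least diverged of these 6 falls, at 12.1% from its consensus.

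Outside genes, a MER58A copy at chr2:90645335-90645483, 31.7 kb from the nearest gene, Nup160, had 4.43 and 4.85 in sgArid1a libraries and 5.94 and 5.78 in sgScramble libraries. It fell by 1.22 ± 0.21 on the log2 scale (adjusted p = 0.00262). A RCHARR1 copy 1029 bases from Rad50 (chr11:53648269-53648490) had 5.47 and 5.63 in sgArid1a libraries and 6.52 and 6.76 in sgScramble libraries, and fell by 1.09 ± 0.20 (adjusted p = 0.00537). A MER63C copy 541 bases from Rac3 (chr11:120724510-120724749) fell by 0.98 ± 0.21 (adjusted p = 0.0246), and its adjusted p was 0.254 without the second sgArid1a library and 0.0568 without the second sgScramble library.

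Of the 5 falls left, 1 lay on chromosome 18 and is counted but not named. Tigger8 in the 3′ UTR of Igfbp4 (chr11:99052542-99052661), an insulin-like growth factor binding protein, had 8.45 and 8.22 in sgArid1a libraries and 9.29 and 9.49 in sgScramble libraries, and fell by 1.06 ± 0.18 (adjusted p = 0.00181). Igfbp4 in polyA RNA differed by -0.07 ± 0.12, while all 5 of its loci of other classes had negative differences. MER58A in an intron of Fbln1 (chr15:85239947-85240125), the matrix protein fibulin-1, had 5.49 and 5.30 in sgArid1a libraries and 6.41 and 6.44 in sgScramble libraries. It fell by 1.03 ± 0.20 (adjusted p = 0.00949, and 0.0595 without the second sgArid1a library), and Fbln1 in polyA RNA fell by 1.08 ± 0.09 (adjusted p = 4.36e-06).

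MER5B in the 3′ UTR of Fam81a (chr9:70088682-70088817) had 2.13 and 2.09 in sgArid1a libraries and 3.16 and 3.29 in sgScramble libraries, and fell by 1.11 ± 0.21 (adjusted p = 0.00566). Fam81a in polyA RNA fell by 0.59 ± 0.10 (adjusted p = 0.00282). Tigger14a in the 3′ UTR of Ttbk1 (chr17:46458431-46458557), a tau kinase, had 1.63 and 1.71 in sgArid1a libraries and 2.58 and 2.33 in sgScramble libraries. It fell by 0.79 ± 0.18 (adjusted p = 0.039), and it reached the limit for members only through its sgScramble values. Ttbk1 in polyA RNA differed by -0.16 ± 0.18 (adjusted p = 0.615). The call of Tigger14a in Ttbk1 was lost without the first sgArid1a library (adjusted p = 0.201), without the second (0.0827) and without the first sgScramble library (0.205). It was also lost with libraries centred on their median (0.0754) and with limma without a trend (0.111).

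None of the 7 families of class DNA with at least 20 members was called by limma on family means, and none of all 35 families was (0.0%). At an unadjusted p under 0.05 there was 1, TcMar-Mariner, with family means of 3.72 and 3.75 in sgArid1a libraries and 3.61 and 3.69 in sgScramble libraries. Its difference was 0.09 ± 0.04 (adjusted p = 0.949). The family hAT-Charlie differed by 0.02 ± 0.03, TcMar-Tigger by 0.05 ± 0.03, hAT-Tip100 by 0.04 ± 0.04, TcMar-Tc2 by 0.02 ± 0.04, hAT-Blackjack by 0.00 ± 0.03 and hAT by -0.03 ± 0.07. 

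Of 174 subfamilies, 96 held at least 5 members, 3647 loci in all, and their locus values were averaged per library. Limma called none of the 96 and none of the 839 subfamilies of all classes (0.0%). At an unadjusted p under 0.05 there were 10 of the 96 and 70 of the 839, and the smallest adjusted p in class DNA was 0.353. The groups did not overlap in 40 of the 96 (41.7%), 29 higher and 11 lower, and in 326 of the 839 (38.9%).

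The largest positive difference was that of Charlie15a, a hAT-Charlie subfamily with 6 members. Its means were 4.96 and 4.84 in sgArid1a libraries, against 4.57 and 4.57 in sgScramble libraries, a difference of 0.34 ± 0.08 (adjusted p = 0.353). All 6 loci had positive differences, from 0.10 to 0.72, but 1 of them was below the limit in the sgScramble mean and became a member only through its sgArid1a values. Tigger18a, with 12 members, had 3.08 and 3.16 in sgArid1a libraries and 2.75 and 2.92 in sgScramble libraries, a difference of 0.28 ± 0.06 in a mean that includes the called copy in Mal. In Tigger18a 10 of the 12 loci had positive differences. MER91A at 0.17 ± 0.08, MER113A at 0.17 ± 0.07 and Charlie19a at 0.16 ± 0.06 followed.

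The largest negative difference was that of Charlie25, whose 5 members all had negative differences, from -0.43 to -0.07. Its means were 2.87 and 2.87 in sgArid1a libraries, against 3.07 and 3.16 in sgScramble libraries, a difference of -0.24 ± 0.04 (adjusted p = 0.353). Charlie24 at -0.19 ± 0.08, MER53 at -0.12 ± 0.07, Charlie5 at -0.12 ± 0.05 and Charlie17b at -0.10 ± 0.04 followed. In MER53 9 of 17 loci had positive differences, and its mean includes the called copy in Trpm1. Of the 16 MER53 loci at or above the limit in both groups, 8 had positive differences.

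The 4 subfamilies with most members differed by no more than 0.06. URR1B with 490 members had means of 3.15 and 3.14 in sgArid1a libraries and 3.09 and 3.14 in sgScramble libraries, a difference of 0.03 ± 0.03. URR1A with 481 members differed by 0.03 ± 0.04, RCHARR1 with 229 by 0.02 ± 0.03 and MER2 with 221 by 0.06 ± 0.04. Within URR1B single loci ran from -1.18 to 0.71, and within RCHARR1 from -1.39 to 1.23.

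**Figure D4:**
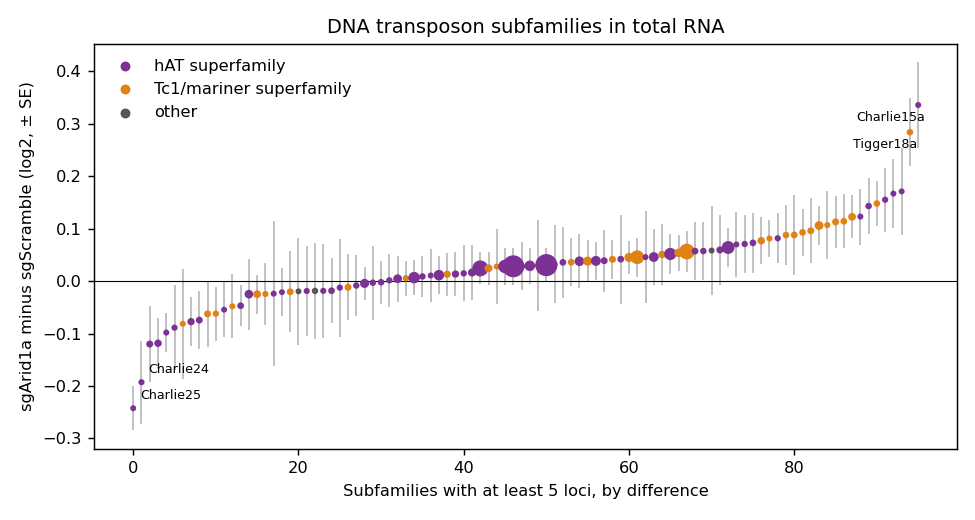
Difference of sgArid1a minus sgScramble (log2, vertical axis, bars ± SE from limma) of the 96 DNA transposon subfamilies with at least 5 loci, in order of the difference; point area grows with the number of loci and colour gives the superfamily. They run from -0.24 for Charlie25 to 0.34 for Charlie15a, and the largest subfamilies, URR1A and URR1B, lie at 0.03.

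Some genes held several members with differences of 1 sign. Over all members 57.0% of differences were positive, and over all loci of other classes 53.5%. The 4 MMAR1 members in Tulp4, chosen after their values were seen, had differences of 0.38 ± 0.22, 0.52 ± 0.20, 0.53 ± 0.21 and 0.75 ± 0.21, none of them called. The fragment at chr17:6123134-6123351, printed above, had 5.25 and 5.45 in sgArid1a libraries, against 4.61 and 4.59 in sgScramble libraries (adjusted p = 0.145). The fragment at chr17:6122341-6122567 had 6.30 and 6.17 in sgArid1a libraries, against 5.54 and 5.89 in sgScramble libraries. Tulp4 in polyA RNA differed by -0.19 ± 0.10 (adjusted p = 0.243), in the other direction, and 29 of its 32 loci of other classes had positive differences. Of these 32, 5 reached the limit only through their sgArid1a values, so their sign is partly set by the limit. In the 26 at or above it in both groups, 24 had positive differences. The 3 printed fragments share a transcript and the fourth member lies in an intron of the same gene, so they are not separate evidence.

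Mgat5 held most members, 23, of which 16 had positive differences, with a median of 0.13. Of the 22 at or above the limit in both groups, 15 had positive differences, beside 2018 of the 3587 such members in all genes and outside them. Lncpint held 13 with a median of 0.06, Fgfr2 held 12 with -0.06 and Myo10 held 11 with 0.05. All 10 members in Ankfn1 had positive differences, from 0.04 to 0.55, and Ankfn1 in polyA RNA differed by -0.10 ± 0.10 (adjusted p = 0.569). None of the members in these 5 genes was called. In Slc45a2, a melanosomal transporter gene, the signs were mixed. There 4 of 7 members had negative and 3 positive differences, from -0.45 to 0.25, with a median of -0.36 and none called. Slc45a2 in polyA RNA differed by -0.05 ± 0.09 (adjusted p = 0.782).

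The gene that holds a member was tested in the polyA libraries of untreated cultures, which are other libraries than the total RNA ones and were normalized apart. There limma called 1372 of 11604 genes (11.8%), 678 higher and 694 lower, with all 8 libraries of the table in the fit. With these 2 groups alone it called 264 higher and 373 lower, so the split below rests on the larger count. For 3299 members the gene was tested. Over all 3808 members the median difference was 0.04, with 57.0% above 0. The 199 members in genes that rose had a median difference of 0.07, with 127 above 0. The 227 in genes that fell had a median of -0.06, with 133 below 0, and the 2873 in genes that were not called had 0.04. Across these 3299 loci in 2203 genes, which share libraries and often a gene, Pearson's r between the locus and its gene was 0.19 and Spearman's rho was 0.11. It was 0.24 for the 937 exonic members and 0.18 for the 2362 intronic ones (Pearson).

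**Figure D5:**
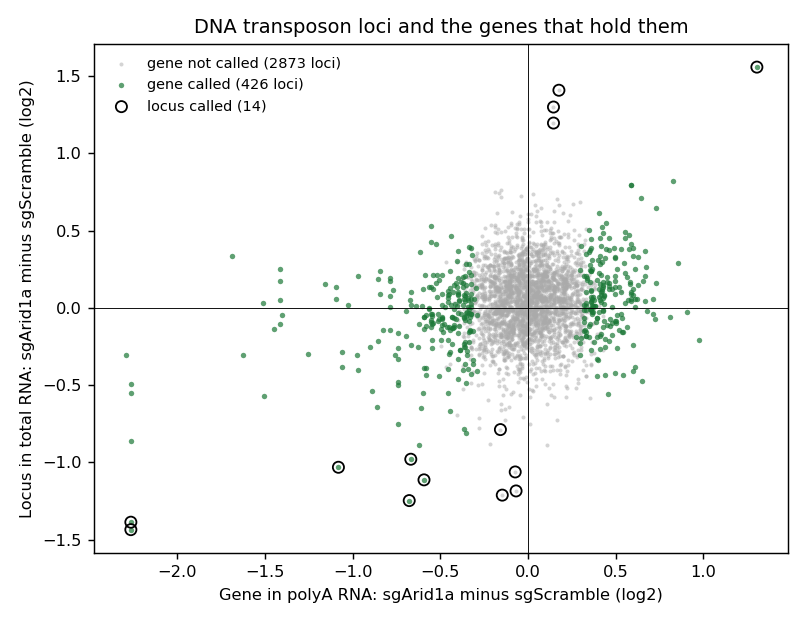
Difference of sgArid1a minus sgScramble (log2) of a locus in total RNA (vertical axis) against that of the gene that holds it in polyA RNA (horizontal axis), 1 point for each of the 3299 members whose gene was tested; green marks the 426 in a called gene and circles the 14 called loci. The circled loci in Trpm1 and Col11a2 lie far out with their genes, and the cloud as a whole follows the genes weakly, with r at 0.19.

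The members were also set beside loci of other classes in the same gene. For the 3202 members whose gene held at least 3 LINE, SINE, LTR or other loci at the same limit, r between the member and the median of those loci was 0.36, and it was 0.49 for the 805 exonic members. These values come from the same 4 libraries, so noise of a library can add to them. Of the 14 called members whose gene was tested, 7 lay in genes called in the same direction, none in genes called in the other direction and 7 in genes not called. Among all 3299 members whose gene was tested, 426 lay in called genes of either direction. The 14 lay in 12 genes, with 2 each in Trpm1 and Mgat4a, so they are not independent of one another.

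Both gene lists below are given in the polyA libraries, beside a median difference of 0.01 over all 11604 genes. Of 30 genes listed as derived from transposases, such as Pogz and the Tigd and Thap genes, 25 were tested. Of these, 1 fell and none rose, with a median of 0.00. The one that fell was Nfxl1, whose origin from a transposase was not checked, so its place on the list is uncertain. No other gene of this list was called. Nfxl1 had 8.70 and 8.69 in sgArid1a libraries and 9.31 and 9.11 in sgScramble libraries. It fell by 0.51 ± 0.10 on the log2 scale (adjusted p = 0.00687). Tigd2, kin to the Tigger transposase, differed by -0.35 ± 0.14 (adjusted p = 0.13), Pogk by -0.22 ± 0.09 and Thap2 by -0.21 ± 0.12.

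Of 30 listed symbols of genes that silence repeats, such as Trim28, Setdb1 and Dnmt1, 29 were found and tested. The symbol not found, Tasor, names the same gene as Fam208a, which was tested. Of the 29, 1 rose and none fell, with a median of 0.07. Pogz stands on both lists. The one that rose was Uhrf1, the partner that guides Dnmt1 to newly copied DNA, with 12.51 and 12.44 in sgArid1a libraries and 11.78 and 11.94 in sgScramble libraries, by 0.61 ± 0.09 (adjusted p = 0.00104). Daxx differed by 0.34 ± 0.11 (adjusted p = 0.0758), Suv39h1 by 0.24 ± 0.09 and Setdb1 by 0.25 ± 0.10. These counts of 1 in 25 and 1 in 29 stand beside the 11.8% of all genes called, and nothing is read from them about the lists as a whole.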

How the data were processed

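Per the file headers, the authors counted reads of each repeat locus with HOMER on mm10, with no strand option, and normalized them to log2 values; how the values were scaled at low counts is not given in the sources used here. Alignment used STAR 2.5.3a, per the submitters' processing notes. The deposited table also holds the authors' log2 fold changes and adjusted p-values, quoted as theirs, and each locus's divergence as a fraction, given here in percent. Gene values are the authors' deposited log2 values from polyA libraries. Log2 values were compared with limma 3.58.1 (trend, R 4.3.3, Benjamini-Hochberg), with no pseudocount, over loci with a mean of at least 2 and genes with a mean of at least 4, and ± gives a standard error. Loci were placed in GENCODE vM21 genes with bedtools 2.31.1, and the fits were tested on simulated data. How reads that fit several copies were counted is not given in the sources used here. Members, lists and tests were chosen with earlier results of these data known. Named loci are the 6 largest separate differences each way (called first, then means of at least 4) and the 6 highest levels. The other called loci, the Tulp4, Trpm1, Ankfn1 and Slc45a2 members and the genes with most members were added after their values or annotation were seen. So were the sequences, because no genome was at hand. Named subfamilies are the 5 largest separate differences each way and the 4 with most members, and named list genes have the smallest p. Other limits, scalings, fits and left-out libraries were tried.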

Additional observations from a re-analysis of the deposited data

How the results depend on the processing

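The 5 higher and 13 lower locus calls were 0 and 0 when loci of every level entered the fit, 10 higher with a limit of 4 (688 members), and 1 higher and 6 lower without exonic members. Without 1 library they ranged from 5 to 9 higher and from 9 to 17 lower; leaving out sgScramble replicate 2 gave the 9 higher. With the replicate number as a block they were 5 and 13. The replicate numbers share only a number. Replicate 1 minus replicate 2 of sgArid1a correlated with the same difference of sgScramble at -0.03 over members and -0.35 over subfamilies. A crossed pairing, chosen after seeing this, gave 15 higher and 26 lower. Subfamily and family calls were 0 under every alternative run, the replicate block among them. The class difference of 0.03 was -0.011 with a limit of 4, of opposite sign, and 0.006 to 0.055 without 1 library. Outside genes it was 0.01, and 0.070 in the 38 loci beyond 10 kb. Gene calls, 678 higher and 694 lower, were 264 and 373 with the 2 groups alone and 295 and 392 with the replicate block. Of the 6 largest positive and 6 largest negative differences described first, 11 kept direction and call under each alternative that tested them, except the fit without a limit, where all 11 lost the call; MER81 in Padi2 passed under 3. Smaller called falls were less stable: the Rac3, Fbln1 and Ttbk1 loci each lost the call without at least 1 library. The 2 libraries a group, reads shared between copies and unstranded counts limit every value here.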
